A study of Mus musculus with 96 samples.

Results

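Slc14a1 and Slc14a2 encode the urea transporters of the UT-B and UT-A families, and their transcripts are described here along the whole mouse nephron. The genes were taken by symbol and are 2 of the 54532 genes in the deposited expression table, under the identifiers ENSMUSG00000059336 (Slc14a1) and ENSMUSG00000024552 (Slc14a2). They neighbour each other in the RefSeq annotation of GRCm38.p6.

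Facilitated urea transporters let urea cross cell membranes down its gradient, and the kidney uses them to hold urea in the inner medulla and so to concentrate urine. Slc14a2 is known for several UT-A isoforms: long and short forms in the inner medullary collecting duct, where vasopressin acts through cAMP to raise urea permeability, and the form called UT-A2 in the descending thin limb of short loops. Slc14a1 is known as the urea transporter of red blood cells, which carries the Kidd blood group in humans, and of the descending vasa recta, the capillaries that run beside the loops of Henle.

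The study measured RNA in segments dissected by hand from kidneys of male C57BL/6 mice aged 6 to 8 weeks on normal chow, with no treatment or genetic change in any group. The 15 groups were the glomerulus (GL), the proximal tubule from its first convoluted part to the outer stripe (PTS1, PTS2 and PTS3), the short-loop descending limb (DTL1), the descending limb of long loops in the outer medulla (DTL2) and inner medulla (DTL3), the thin ascending limb (ATL), the medullary part of the thick ascending limb (MTAL) and its cortical part (CTAL), the DCT (distal convoluted tubule), the CNT (connecting tubule), and 3 parts of the collecting duct, in the cortex (CCD), in the outer medulla (OMCD) and in the inner medulla (IMCD). There were 93 libraries, 87 of tubule pieces and 6 of glomeruli. Pieces with the same mouse number and segment were averaged, which gave 53 mice: 5 each in PTS2, CTAL and CCD, 4 each in ATL and OMCD, and 3 in each other group.

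Levels are in TPM, the authors' measure of abundance scaled by transcript length and library, so the 2 genes can be compared with each other. TPM keep no read depth, so no limit of detection can be given, and a value of 0 means only that the gene was listed at 0. The pieces carried the transcripts that define their labels in most groups: Umod, the uromodulin gene of the thick ascending limb, averaged 21235 TPM in MTAL, and Aqp2, the vasopressin-regulated water channel, averaged 26774 TPM in OMCD and 27393 TPM in IMCD. Aqp1, the water channel of long descending limbs, was 11647 TPM in DTL3 and 6582 TPM in DTL2 but 97.4 TPM in DTL1, while Bst1, another gene on the list of descending limb markers, was 397 TPM in DTL1. The DTL1 pieces also held 2498 TPM of Kap, a proximal tubule transcript. A piece can hold capillary and interstitial cells as well as tubule, and in bulk RNA fewer cells of a type and less RNA per cell cannot be told apart.

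Slc14a2 was a gene of 2 segments. Its mean reached 7555 ± 3075 TPM in DTL1 (SD, n = 3 mice), where it was number 5 of all genes by mean TPM and took 0.756% of the total, and 2182 ± 685 TPM in IMCD (SD, n = 3 mice), where it was number 34. The third group in the order, DTL3, had 13.4 ± 13.1 TPM (SD, n = 3 mice). DTL1 and IMCD together held 99.8% of the sum of the 15 group means. In all, 53 of the 93 libraries were listed at 0 and 17 reached 10 TPM. Every DTL1 and IMCD piece was far above every piece of the other groups, the highest of which was 28.4 TPM in DTL3.

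In DTL1 the single piece of mouse 1 had 9809 TPM of Slc14a2. The pair of pieces from mouse 3 had 7931 and 9677 TPM, and the single piece of mouse 5 had 4052 TPM. Mouse 5 was thus lowest, and its piece also had the lowest Umod of the 4 (73.0 TPM against 239 to 393 TPM) and the lowest Avpr2 (1.93 TPM against 10.7 to 12.4 TPM). Other markers of the same segments went the opposite way. This piece had the highest Slc12a1, a thick limb gene (7.99 TPM against 1.58 to 4.51 TPM), and the highest Aqp2 (58.7 TPM against 5.19 to 34.5 TPM). Its Aqp3 (0.41 TPM) lay between the others, and Cldn16, a thick limb gene, was at most 0.31 TPM in all 4. The part of these differences in the Slc14a2 value was not tested.

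In the 9 IMCD pieces Slc14a2 ran from 1279 TPM to 2816 TPM with a median of 2449 TPM. The mouse means were 1401, 2464 and 2681 TPM for mice 1, 2 and 3. All 3 pieces of mouse 1, at 1565, 1279 and 1360 TPM, lay below the 6 pieces of the other mice, the lowest of which was 1804 TPM.

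Other transcripts also separated that mouse. Of the 26 genes of the urea list described further on, 9 had all 3 pieces of mouse 1 below all 6 others, 1 had them above and 16 overlapped, beside 8.9% of all genes tested below and 2.33% above. Cryab, a small heat shock protein gene abundant in the inner medulla, was 6686 to 9633 TPM in its pieces and 13556 to 23185 TPM in the others. Avpr2, the vasopressin receptor, was 631 to 810 TPM against 1016 to 1436 TPM. Akr1b3, the aldose reductase that makes sorbitol, was 3513 to 3953 TPM against 4670 to 8375 TPM. Stx4a, a membrane fusion gene, was the one that stood higher, at 57.9 to 74.3 TPM against 36.1 to 56.0 TPM. Aqp2 overlapped between the mice, with 25346 to 31251 TPM in mouse 1 against 24306 to 30998 TPM elsewhere. The part of these differences in the lower Slc14a2 of mouse 1 was not tested.

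**Figure D1:**
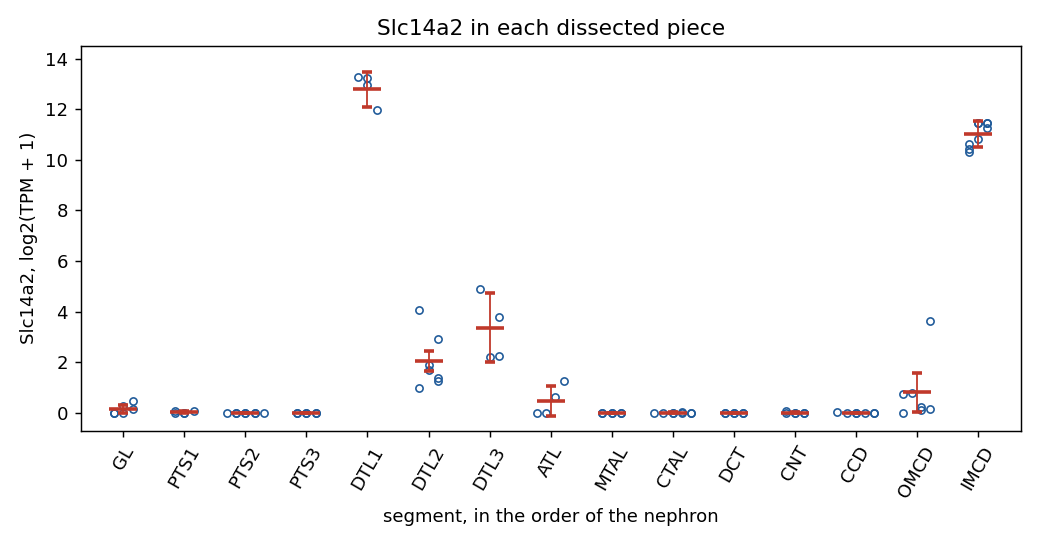
Slc14a2 in each of the 93 dissected pieces (open circles, pieces of one mouse stacked in one column) as log2(TPM + 1), by segment in the order of the nephron. Red bars are the mean of the mouse values ± SD; DTL1 and IMCD stand above 10 on this scale and no piece elsewhere passes 28.4 TPM.

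The long-loop descending limb carried traces of Slc14a2. The DTL3 pieces had 28.4 TPM (mouse 1), 3.61 TPM (mouse 2), and 13.0 and 3.68 TPM (mouse 3). The 7 DTL2 pieces ran from 0.95 to 15.5 TPM with a median of 2.26 TPM, and their mean over mice was 4.63 ± 3.15 TPM (SD, n = 3 mice). The pieces of DTL2 and DTL3 overlapped.

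Scattered values remained in 2 further groups. In OMCD, 1 piece of mouse 4 had 11.4 TPM of Slc14a2 while the other piece of that mouse had 0.11 TPM and the remaining 5 pieces had 0 to 0.73 TPM. In ATL, mice 2 and 3 were listed at 0, mouse 4 had 0.55 TPM and mouse 6 had 1.4 TPM. The libraries of mice 4 and 6 also had more genes at 1 TPM or more, 23465 and 24647 against 13949 and 13532 in mice 2 and 3. The part of that breadth in the ATL values was not tested. The glomerular pieces did not exceed 0.4 TPM, and PTS1, CTAL, CNT and CCD did not exceed 0.05 TPM. PTS2, PTS3, MTAL and DCT were listed at 0 in every piece.

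Differences were tested with limma on log2(TPM + 1) across 33793 genes, with Benjamini-Hochberg adjustment over all of them in each contrast. A gene was called with an adjusted p under 0.05 and a log2 difference of at least 1, except in the F-test among all groups, which used the adjusted p alone. Slc14a2 differed among the 15 groups (adjusted p = 2.84e-34 by limma's F-test), as did 93.9% of the genes tested, so that call alone says little about it.

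DTL1 stood above IMCD by 1.76 log2 units (SE 0.38, 95% interval 0.99 to 2.52, adjusted p = 9.5e-05 by limma), with all 3 DTL1 mice above all 3 IMCD mice. In that contrast 50.5% of all genes were called, 46.8% being higher in DTL1 and 3.73% in IMCD, and the median difference of all genes was 0.94. Relative to that median the margin of Slc14a2 was 0.82. Median-ratio rescaling lowered the difference of Slc14a2 itself to 1.44 and the median of all genes to 0.74, which left a margin of 0.70. After quantile normalization the difference was 2.14 and the median 0.02. The DTL1 libraries also had the most genes at 1 TPM or more, a median of 27731 against 13456 in IMCD, and the part of that breadth in the margin was not tested.

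Between the outer and the inner medullary collecting duct, Slc14a2 rose by 10.22 log2 units toward IMCD (SE 0.36, adjusted p = 8.66e-27 by limma), where 18.6% of genes were called, 15.2% higher in OMCD and 3.40% higher in IMCD. Between the descending limb of short loops and that of long loops in the outer medulla, the margin in favour of DTL1 was 10.73 (SE 0.38, limma adjusted p = 1.94e-25), where 28.2% of genes were called and 25.2% were higher in DTL1. The traces in DTL3 were 2.89 log2 units above ATL (SE 0.36, adjusted p = 1.09e-08 by limma), where 14.6% of genes were called; with only both groups fitted this was not called (adjusted p = 0.0947). DTL2 was 2.05 log2 units above PTS3 (SE 0.38, adjusted p = 1.26e-05 by limma), where 40.0% of genes were called; with a pseudocount of 5 the difference was 0.79, below the size asked for a call.

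In the order of levels DTL1, IMCD, DTL3, DTL2 and OMCD, each of the first 4 passed the test against the next. IMCD exceeded DTL3 by 7.66 (SE 0.38, adjusted p = 6.09e-21 by limma), where 29.6% of genes were called. DTL3 exceeded DTL2 by 1.32 (SE 0.38, adjusted p = 0.0102 by limma), where 9.58% of genes were called, and DTL2 exceeded OMCD by 1.25 (SE 0.36, adjusted p = 0.0095 by limma), where 8.86% were called. These last margins were not stable: without DTL3 mouse 1 the first was 0.56 (adjusted p = 0.285) and without DTL2 mouse 2 it was 1.18 (adjusted p = 0.0509), while the second was 1.02 without DTL2 mouse 1 (adjusted p = 0.0914) and 1.03 without OMCD mouse 3 (adjusted p = 0.0573), all by limma. From OMCD downward no group passed the test against the next, the difference from OMCD to ATL being 0.33 (SE 0.33, 95% interval from -0.33 to 0.99 on the log2 scale).

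Across the 16 pairs of anatomical neighbours, which include both the short-loop and the long-loop course, Slc14a2 was called in 7. The share of all genes called ran from 1.12% for CNT against CCD to 65.5% for PTS3 against DTL1. All 7 pairs involved DTL1, DTL2, DTL3 or IMCD. The largest differences, 12.78 each, put DTL1 above PTS3 and above MTAL (SE 0.38, limma adjusted p = 2.5e-29 and 1.04e-28). In these pairs 65.5% and 56.6% of genes were called, and PTS3 and MTAL were listed at 0 for Slc14a2 in every piece. From CCD to OMCD the difference was 0.80 (SE 0.31, adjusted p = 0.0494 by limma), below the size asked for a call, in a pair where 12.1% of genes were called. Without OMCD mouse 3 it was 1.02 and passed (adjusted p = 0.0253 by limma).

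**Figure D2:**
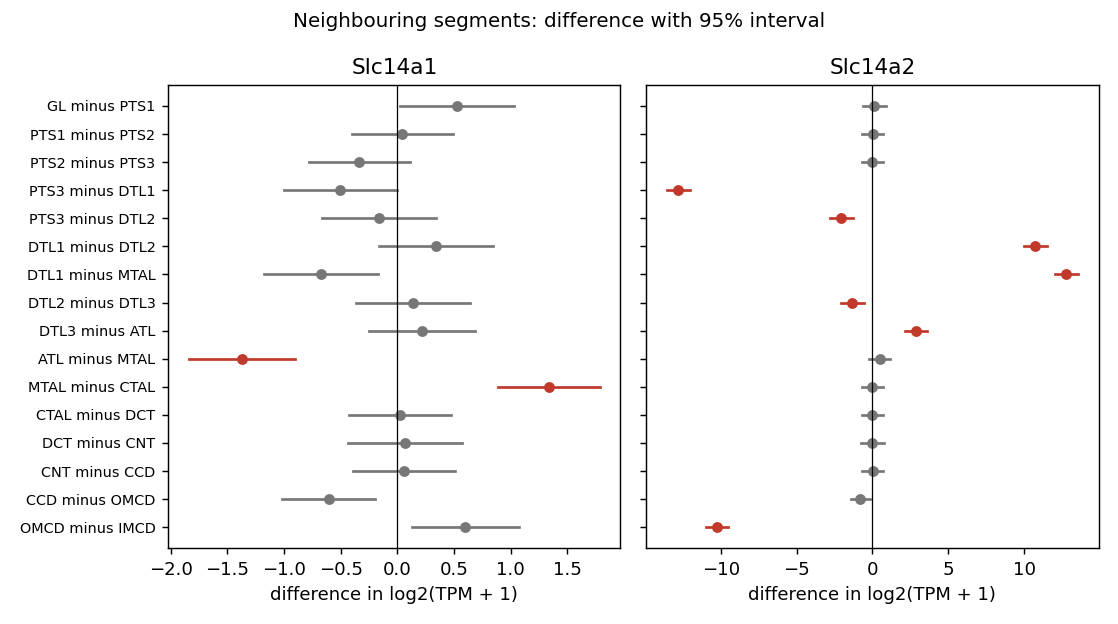
Differences in log2(TPM + 1) between neighbouring segments for Slc14a1 (left) and Slc14a2 (right), first segment minus second, with 95% intervals from limma; red marks pairs that were called. The scales differ: the Slc14a1 axis spans about 4 log2 units, while Slc14a2 reaches 12.78 for DTL1 minus MTAL and -12.78 for PTS3 minus DTL1.

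Slc14a1 was scarce throughout. Its highest library had 4.26 TPM, 9 of the 93 reached 1 TPM, 0 reached 10 TPM and 27 were listed at 0. The highest group mean was that of MTAL, 2.28 ± 1.29 TPM (SD, n = 3 mice), followed by OMCD at 0.88 ± 1.03 TPM (SD, n = 4 mice) and DTL1 at 0.835 ± 0.117 TPM (SD, n = 3 mice). IMCD, the segment with the second highest Slc14a2, had 0.05 ± 0.065 TPM (SD, n = 3 mice). Background differed between these groups. Of 1979 olfactory and vomeronasal receptor genes, a median of 863.5 reached 1 TPM in DTL1 libraries, 653.5 in GL, 107 in OMCD and 1.5 in MTAL. By mean TPM, Slc14a1 was number 31656 of all genes in DTL1, 33097 in GL, 20020 in OMCD and 11101 in MTAL. The part of background in the Slc14a1 values was not tested.

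The MTAL pieces had 0.43 and 1.71 TPM of Slc14a1 in mouse 1, 0.5 and 3.8 TPM in mouse 2, and 3.56 and 3.7 TPM in mouse 3. The pieces of one mouse thus differed as widely as the mice did: the SD of pieces within mice was 0.78 on the log2 scale and that of the mouse means 0.62. In DTL1 the pieces had 0.76 TPM (mouse 1), 0.41 and 1.14 TPM (mouse 3) and 0.97 TPM (mouse 5). In OMCD they had 0.24 and 4.26 TPM (mouse 1), 1.11 TPM (mouse 2), 0.1 and 0.12 TPM (mouse 3), and 0.08 and 0.02 TPM (mouse 4).

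Single pieces therefore set several of these means. Of the 7 OMCD pieces 2 reached 1 TPM, against 4 of 6 in MTAL and 1 of 4 in DTL1. In PTS3, 1 piece of mouse 3 had 3.51 TPM and the other 5 pieces were listed at 0, including the second piece of the same mouse. The glomerular pieces were even, from 0.2 to 0.8 TPM with a mean of 0.533 ± 0.208 TPM (SD, n = 3 mice). DTL2 averaged 0.492 ± 0.320 TPM and DTL3 0.31 ± 0.095 TPM (SD, n = 3 mice each), and the means of ATL, CTAL, DCT, CNT, CCD, PTS1, PTS2 and IMCD were at or below 0.153 TPM.

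**Figure D3:**
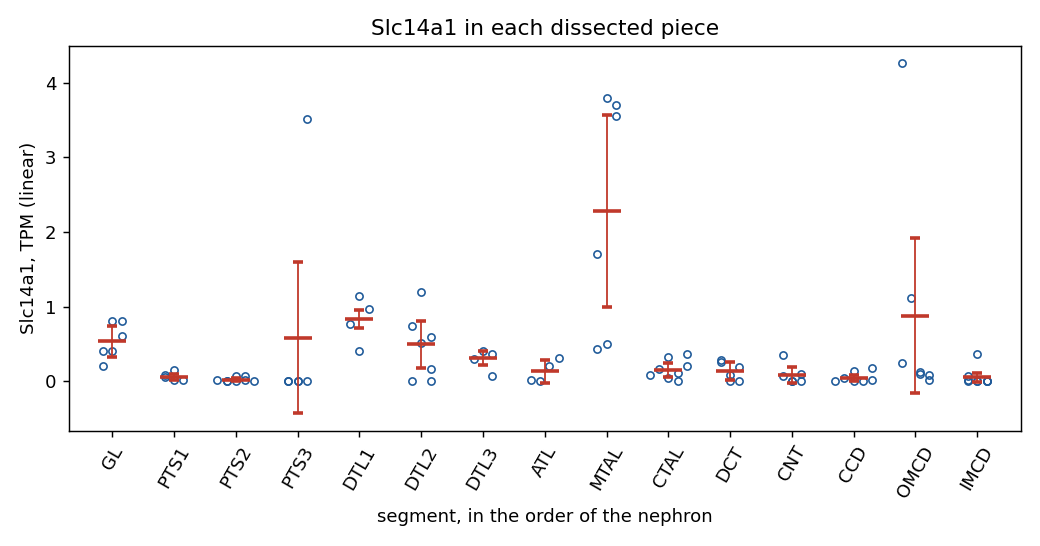
Slc14a1 in each dissected piece (open circles, pieces of one mouse stacked in one column) in TPM on a linear axis, by segment in the order of the nephron. Red bars are the mean of the mouse values ± SD; the pieces above 2 TPM are 3 of MTAL, 1 of OMCD at 4.26 TPM and 1 of PTS3 at 3.51 TPM.

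Slc14a1 differed among the 15 groups (adjusted p = 4.71e-06 by limma's F-test, beside 93.9% of all genes). Among all pairs of groups it was called in 11, each with MTAL as the higher group. Over these 11 pairs the share of all genes called higher in MTAL ran from 0.589% against CTAL to 13.5% against PTS3. MTAL rose above CTAL by 1.34 log2 units (SE 0.22, adjusted p = 2.85e-05 by limma), with all 3 MTAL mice above all 5 CTAL mice, in a pair where 3.15% of genes were called. It was 1.37 above ATL (SE 0.23, adjusted p = 4.94e-06 by limma), where 28.1% of genes were called and 5.43% were higher in MTAL. Both calls were kept when each mouse was left out in turn. With a pseudocount of 5 neither reached the size asked for a call (0.47 and 0.48), and with only both groups fitted the difference from ATL had an adjusted p of 0.0742 by limma.

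MTAL was not called against DTL1, OMCD or GL, whose libraries had more of the background receptor genes counted above. Its margin over DTL1, the next group in the order of log2 means, was 0.67 (SE 0.25, 95% interval 0.17 to 1.18, adjusted p = 0.0142 by limma). This was below the size asked for a call, in a pair where 56.6% of genes were called. In mean TPM all 3 MTAL mice, the lowest at 1.07 TPM, were above all 3 DTL1 mice, the highest at 0.97 TPM. With pieces averaged on the log2 scale, MTAL mouse 1 (0.977) and DTL1 mouse 5 (0.978) were not separated. Without MTAL mouse 3 the margin was 0.34 (adjusted p = 0.234 by limma) and without MTAL mouse 1 it was 0.95 (adjusted p = 0.00164). The margin over OMCD was 0.87 (SE 0.23, adjusted p = 0.00236 by limma), where 23.2% of genes were called, and that over GL was 0.94 (SE 0.25, adjusted p = 0.00103 by limma), where 52.5% were called. Below DTL1 no group in the order passed the test against the next.

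Most genes moved the other way between MTAL and DTL1. Their median difference was 1.10 log2 units toward DTL1, and after quantile normalization the MTAL margin of Slc14a1 over DTL1 was 1.85 (adjusted p = 4.36e-07 by limma). Between DTL1 and IMCD the Slc14a1 difference was 0.80 (SE 0.25, adjusted p = 0.00449 by limma), below the size asked for a call. It fell short of the median of all genes in that contrast by 0.14 and was 0.01 after quantile normalization.

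A dissected piece can hold blood and capillaries, so transcripts of the cell types known for Slc14a1 are given beside it. Red cell transcripts were low in MTAL: the 8 erythroid genes summed to 0 to 0.65 TPM in the MTAL pieces, with 3 of the 8 at 0 in every piece. The sum was 0.79 to 4.54 TPM in OMCD and 6.79 to 19.7 TPM in DTL1, where Epb42 reached 12.9 TPM and Rhag 5.05 TPM as the highest mouse values. The beta-globin gene Hbb-bs was listed at 0 in all MTAL, OMCD and DTL1 pieces. In CTAL that sum reached 156 TPM in 1 piece of mouse 3, which had 0.04 TPM of Slc14a1. In the glomeruli it was 54.3 to 745 TPM. The part of red cells in the Slc14a1 values was not tested.

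Endothelial transcripts were present in all groups. The 9 endothelial genes, none of them at 0 throughout, summed to 288 to 800 TPM in MTAL, 453 to 649 TPM in OMCD, 373 to 748 TPM in CTAL, 3342 to 5434 TPM in DTL1 and 4006 to 4406 TPM in GL. The ranges of MTAL, OMCD and CTAL overlapped while CTAL had at most 0.36 TPM of Slc14a1, and the DTL1 and GL pieces, with the largest sums of the 15 groups, reached at most 1.14 and 0.8 TPM of Slc14a1. Within MTAL, however, the 3 pieces with the most Slc14a1 also had the 3 largest sums, at 494, 541 and 800 TPM against 288 to 437 TPM in the others. In DTL2 the piece with the most Slc14a1, 1.2 TPM, had the largest sum of its group, 2608 TPM, and the 2 pieces listed at 0 had the smallest, 1524 and 1588 TPM. DTL1, OMCD and CTAL showed no such order. The DTL1 piece with the largest sum, 5434 TPM, had the lowest Slc14a1 of its group, 0.41 TPM, the OMCD piece with the largest sum, 649 TPM, had 0.24 TPM, and the CTAL piece highest in Slc14a1 had a sum of 432 TPM, second lowest of 8. The list does not single out descending vasa recta, and its part in the Slc14a1 values was not tested.

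Aqp1, which descending vasa recta and descending thin limbs are both known to carry, went with Slc14a1 in MTAL and OMCD but not in every group. In MTAL the pieces of mouse 1 had 0.5 and 2.1 TPM of Aqp1, those of mouse 2 had 0.59 and 3.65 TPM, and those of mouse 3 had 1.8 and 3.44 TPM; the pieces lowest in Aqp1 were those lowest in Slc14a1. In OMCD the piece with 4.26 TPM of Slc14a1 had 21.6 TPM of Aqp1, the piece with 1.11 TPM had 2.24 TPM, and the other 5 pieces had 0.08 to 0.81 TPM. In DTL1 the piece with the most Aqp1, at 227 TPM, had 0.76 TPM of Slc14a1, and the piece with 1.14 TPM had 18.1 TPM of Aqp1. In CTAL a piece with 0.18 TPM of Aqp1 had 0.33 TPM of Slc14a1, while one with 1.18 TPM was listed at 0. The IMCD piece highest in Aqp1, at 6 TPM, was listed at 0 for Slc14a1. Bst1, the descending limb gene, was at most 0.41 TPM in MTAL and 0.67 TPM in the OMCD piece with 4.26 TPM. The PTS3 piece with 3.51 TPM of Slc14a1 differed in this: it had 4.72 TPM of Bst1, against 0 to 0.45 TPM in the other 5 PTS3 pieces, and it alone of the 6 held Hbb-bs (0.36 TPM) and Hba-a1 (0.14 TPM), the alpha-globin gene. Its Aqp1 (576 TPM) and endothelial sum (132 TPM) lay within the range of the others. So did its sum of the 8 erythroid genes, 1.07 TPM against 0.17 to 2.37 TPM. The part of vasa recta or thin limb in the Slc14a1 values was not tested.

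**Figure D4:**
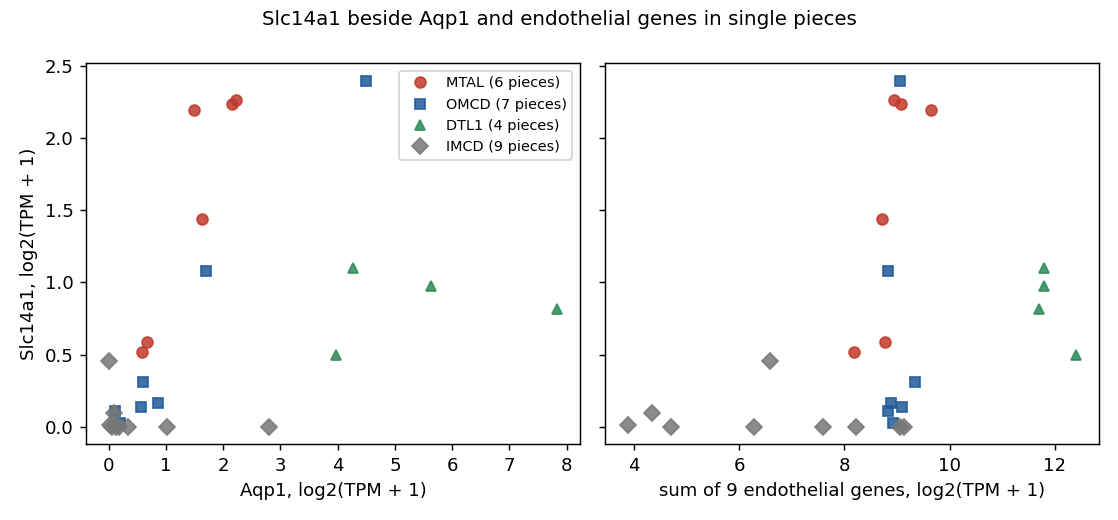
Slc14a1 beside Aqp1 (left) and beside the sum of 9 endothelial genes (right) in single pieces of MTAL, OMCD, DTL1 and IMCD, all as log2(TPM + 1). In MTAL the pieces highest in Slc14a1 have more Aqp1 than those lowest in it and also the largest endothelial sums; in OMCD the 2 pieces above 1 TPM have the most Aqp1, with endothelial sums inside the range of the others; DTL1 and IMCD show no such order.

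The 2 genes were set side by side within each library. In DTL1, Slc14a2 exceeded Slc14a1 by 11.92 log2 units (SD 0.79, n = 3 mice) and in IMCD by 10.96 (SD 0.50, n = 3 mice). Slc14a1 was listed at 0 in 6 of the 9 IMCD pieces, and both values moved with the pseudocount. With 0.1 they were 12.93 in DTL1 and 14 in IMCD, and with 5 they were 10.24 and 8.69. In MTAL the order of the 2 genes was the opposite in all 3 mice, since Slc14a2 was listed at 0 and Slc14a1 was 1.07 to 3.63 TPM. The OMCD piece with 11.4 TPM of Slc14a2 had 0.02 TPM of Slc14a1, and the OMCD piece with 4.26 TPM of Slc14a1 was listed at 0 for Slc14a2.

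Both values are sums over transcripts. GENCODE M21 annotates 3 transcripts of Slc14a1, all coding, and 6 of Slc14a2, of which 5 are coding and 1424 to 4033 bases long. The TPM of DTL1 and IMCD can therefore stand for different isoforms of Slc14a2, which the gene-level table does not separate.

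A list of 26 genes tied to urea handling gave the surroundings in which Slc14a2 was high: urea formation, urea-permeable aquaporins, vasopressin and cAMP signalling, trafficking and turnover, and the response to tonicity. DTL1 and IMCD differed in 14 of the 26, with 9 higher in DTL1 and 5 higher in IMCD, that is 53.8% against 50.5% of all genes tested. The median difference of the list was 0.71 toward DTL1, against 0.94 for all genes. Thus the share called was near that of the whole table.

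Of the vasopressin and cAMP genes, 1 of 8 was higher in IMCD and 2 in DTL1, beside 3.73% and 46.8% of all genes. Avpr2 was 8.14 ± 5.41 TPM in DTL1 and 1012 ± 286 TPM in IMCD (SD, n = 3 mice each), 7.01 log2 units higher in IMCD (SE 0.33, adjusted p = 9.74e-22 by limma). Gnas, the stimulatory G protein subunit, was 835 ± 38.5 TPM and 605 ± 194 TPM (SD, n = 3 mice each), and the cyclase gene Adcy6 was 40.1 ± 13.6 TPM and 41.3 ± 8.69 TPM (SD, n = 3 mice each); neither was called. For the kinase gene Prkacb the margin was 1.51 in favour of DTL1 (SE 0.15, limma adjusted p = 1.71e-11).

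The aquaporins that also pass urea and glycerol split the segments. Aqp3 was 7.97 log2 units higher in IMCD than in DTL1 (SE 0.25, adjusted p = 3.73e-28 by limma), at 384 ± 110 TPM against 0.443 ± 0.172 TPM (SD, n = 3 mice each). Aqp7 was higher in DTL1 by 1.86 log2 units (SE 0.27, adjusted p = 1.66e-07 by limma), at 3.57 ± 2.12 TPM. Its highest group was PTS3, at 64.7 TPM, and the DTL1 piece with the most Kap, 4198 TPM, also had the most Aqp7, 5.92 TPM, while the piece with the least Kap, 798 TPM, had 4.84 TPM; the part of proximal tubule in the Aqp7 value was not tested. Aqp9 was 2.15 ± 1.62 TPM in DTL1 and 0.798 ± 0.785 TPM in IMCD (SD, n = 3 mice each) and was not called.

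Of the urea formation genes, Agmat, an agmatinase-like gene, was 0.955 ± 1.40 TPM in DTL1 and 0.033 ± 0.042 TPM in IMCD (SD, n = 3 mice each) and was not called.

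The tonicity list was the one led by IMCD, with 3 of 5 genes higher there and 1 higher in DTL1, beside 3.73% and 46.8% of all genes. Akr1b3 was 5432 ± 1731 TPM in IMCD and 167 ± 47.5 TPM in DTL1 (SD, n = 3 mice each), 5.01 log2 units apart (SE 0.29, adjusted p = 5.88e-19 by limma). The betaine transporter gene Slc6a12 was 2.60 higher in IMCD (SE 0.51, adjusted p = 2.49e-05 by limma) and the myo-inositol transporter gene Slc5a3 1.26 higher (SE 0.36, adjusted p = 0.0025 by limma). For Slc6a12 the DTL1 piece of mouse 5 had 0.86 TPM, the other DTL1 pieces 22.1 to 33.6 TPM and the IMCD pieces 40.1 to 102 TPM. The taurine transporter gene Slc6a6 went toward DTL1, its highest group, at 628 ± 180 TPM against 11.3 ± 0.623 TPM (SD, n = 3 mice each), a difference of 5.67 (SE 0.41, adjusted p = 1.01e-15 by limma). Nfat5, the transcription factor of the tonicity response, was 32.3 ± 3.87 TPM in DTL1 and 23.1 ± 4.86 TPM in IMCD (SD, n = 3 mice each) and was not called.

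Of the 7 genes of trafficking, glycosylation and turnover, 3 were higher in DTL1 and 0 in IMCD, a share (42.9%) near the 46.8% of all genes that were higher in DTL1. St6gal1, a sialyltransferase, was 26.8 ± 8.02 TPM in DTL1 and 1.16 ± 0.723 TPM in IMCD (SD, n = 3 mice each), a margin of 3.72 in favour of DTL1 (SE 0.24, limma adjusted p = 1.63e-17). The ubiquitin ligase gene Nedd4l was 1.39 higher (SE 0.16, adjusted p = 4.71e-10 by limma) and the caveolin gene Cav1 1.18 higher (SE 0.47, adjusted p = 0.0241 by limma). The Cav1 call was not shared by all mice: the DTL1 piece of mouse 5 was listed at 0, the other DTL1 pieces had 5.6 to 12.7 TPM, and the IMCD mice averaged 0.557 to 1.98 TPM. Snap23, a membrane fusion gene, was 45.2 ± 5.93 TPM in DTL1 and 44.0 ± 9.35 TPM in IMCD (SD, n = 3 mice each).

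**Figure D5:**
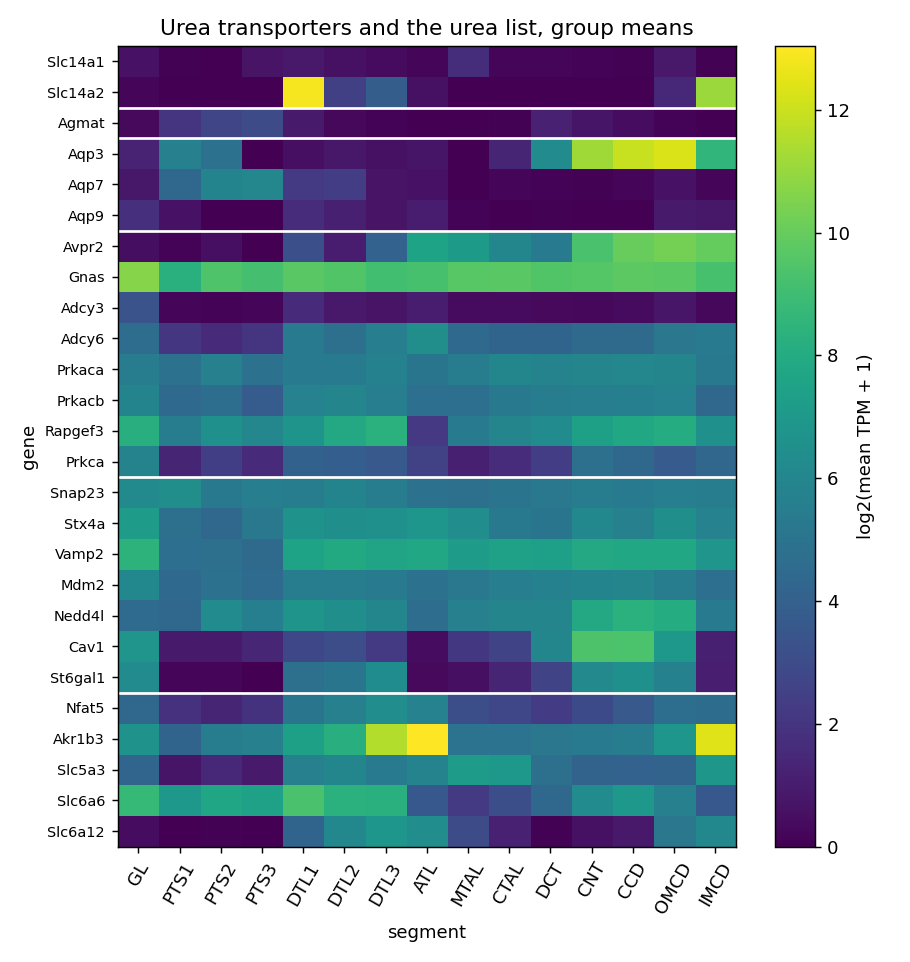
Group means of Slc14a1, Slc14a2 and 24 of the 26 listed genes as log2(mean TPM + 1), by segment; white lines separate the members and the 5 parts of the list (urea formation, urea-permeable aquaporins, vasopressin and cAMP signalling, trafficking and turnover, tonicity response). Slc14a2 is bright in DTL1 and IMCD alone among the 15 columns, while Avpr2 and Aqp3 are high along the collecting duct and Akr1b3 in DTL3, ATL and IMCD.

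Along the medullary collecting duct, where Slc14a2 rose, 11 of the 26 listed genes were called between OMCD and IMCD, 9 higher in OMCD and 2 higher in IMCD, that is 42.3% against 18.6% of all genes tested. The median of the list was 0.61 toward OMCD, against 0.32 for all genes. The 2 that rose with Slc14a2 belong to the tonicity response: Akr1b3 by 5.52 log2 units (SE 0.27, adjusted p = 2.11e-21 by limma) and Slc5a3 by 2.64 (SE 0.34, adjusted p = 2.21e-08 by limma). The other tonicity genes did not: Slc6a6 was 2.08 higher in OMCD (SE 0.38, adjusted p = 2.32e-05 by limma), and Slc6a12 and Nfat5 were not called. Of the other parts, Aqp3 was 3.83 higher in OMCD (SE 0.23, adjusted p = 3.92e-18 by limma), Cav1 5.94 higher (SE 0.44, adjusted p = 2.66e-15 by limma) and St6gal1 4.68 higher (SE 0.22, adjusted p = 6.55e-22 by limma). Avpr2 was 1272 ± 301 TPM in OMCD (SD, n = 4 mice) and 1012 ± 286 TPM in IMCD (SD, n = 3 mice), and was not called.

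The 26 genes did not share the 2-peaked pattern of Slc14a2. In DTL1 24 of them averaged at least 1 TPM and in IMCD 21 did, but their highest group was DTL1 for 2, Slc6a6 among them, and IMCD for 0.

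The genes whose 15 group means were most like those of Slc14a2, among 12067 genes with a group mean of at least 10 TPM, were Snord35a (Pearson r = 0.97), Upk3bl (0.90), Nfe2l3 (0.89), Lsm2 (0.87) and Slc12a8 (0.86). The 15 means share libraries and depth, and these values are descriptions. Snord35a, a small nucleolar RNA, averaged 41.2 ± 71.4 TPM in DTL1 (SD, n = 3 mice), an SD above its mean. Nfe2l3, a transcription factor gene, had the steadier order (Spearman rho 0.91 over the 15 means, r = 0.84 over the 53 mice), with 43.6 ± 15.6 TPM in IMCD and 16.9 ± 3.75 TPM in DTL1 (SD, n = 3 mice each). All 5 had DTL1 and IMCD as their highest groups.

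For Slc14a1 the nearest genes were Fis1 (r = 0.88), Slc24a5 (0.83), Ano4 (0.83), Trac (0.81) and Sycn (0.76), among 12068 genes. All 5 were highest in MTAL. Fis1, a mitochondrial fission gene, ran from abundant to more abundant, with 868 ± 86.9 TPM in MTAL and 639 ± 112 TPM in DTL1 (SD, n = 3 mice each), so the likeness is one of shape and not of level. Slc24a5 averaged 14.9 ± 7.18 TPM in MTAL and Sycn 109 ± 29.0 TPM (SD, n = 3 mice each).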

How the data were processed

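RNA from 93 microdissected pieces of mouse kidney was measured by ultra-low input RNA sequencing, with cDNA made by the SMARTer kit and libraries by Nextera XT, per the labels' protocols. The authors' deposited table gives TPM per gene for 54532 genes, with 2 decimals in tubule columns and 1 in glomerulus columns; columns sum to between 999998.6 and 1000190.3 TPM. STAR 2.5.4a and RSEM 1.3.0 are named, without a role, in the submitters' processing notes. The genome build is not given in the sources used here, so no coordinates are printed. The read depth of each library is unknown. The 14 authors' segment means in the table and 3 single-cell samples were not analysed here. One PTS2 column, whose piece letter matched no sample title, was used as an unnumbered PTS2 mouse.

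TPM are not counts, so log2(TPM + 1) over all 15 groups was modelled with limma 3.58.1 (R 4.3.3, eBayes with a trend). Pieces of one mouse number and segment were averaged on the log scale. Printed TPM are plain means of pieces, then mean ± SD over mice. Genes needed 1 TPM in at least 3 mice (33793 genes). Fold changes on this scale understate the change of low genes. The labels do not say that a number marks the same animal in different segments, and the series counts 53 mice, as many as combinations of number and segment, so numbers were not used to pair segments. P-values rest on a spread between mice that was pooled per gene over all 15 groups and moderated over genes. For Slc14a2 the SD of the mouse means on the log2 scale was 0 in PTS2, PTS3, MTAL and DCT. It was 0.69 in DTL1, 0.50 in IMCD and 1.37 in DTL3, so the pooled SE can be too small for these groups. For DTL2 against DTL3 the SE was 0.38 in the full fit and 0.71 with only both groups fitted. The limma step was tested on simulated data, with changes placed only in better expressed genes and the same spread in every group. That setting did not cover genes as low as Slc14a1 or as often listed at 0 as Slc14a2. Figures were made with Python 3.11.15 and matplotlib 3.10.9.

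The genes named are the 2 urea transporters, the 26 listed genes, markers of other cell types, and for each transporter the 5 genes with the largest Pearson r over the 15 group means. Results for 2 listed genes are not reported here. The members and lists were chosen with earlier results of these data known. Alternatives were other pseudocounts, filters, scalings, fits, ways of averaging pieces and leaving out each mouse.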

Additional observations from a re-analysis of the deposited data

Results flagged for a closer look

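Among 9 combinations of gene and group with 4 or 5 mice and values that varied, over both genes, 2 had a mouse that stood apart from the rest, both for Slc14a2 and at the edge of what the table resolves. In CTAL mouse 4 averaged 0.015 TPM while the other 4 mice were listed at 0. In CCD mouse 1 averaged 0.01 TPM while the other 4 were listed at 0. Chance gives about 1 such case in 20 combinations, and 1 value above 0 among zeros always stands apart by this measure.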

How the results depend on the processing

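Slc14a2 was higher in DTL1 than in IMCD, and in IMCD than in OMCD, under every alternative run. Of 2939 alternative values, 2904 kept their side of the threshold or their size. None of the differences called in either fit reversed (0). Differences called in neither fit were not checked for direction, and some changed sign. For Slc14a1, PTS3 minus DTL1 was -0.50 as deposited and 0.70 after quantile normalization, and DTL1 minus DTL2 was 0.34 and -0.09. Leaving out each mouse gave 1.47 to 2.15 for DTL1 against IMCD. The Slc14a1 calls depended on the pseudocount: of 16 neighbouring pairs, 2 were called with a pseudocount of 1, 6 with 0.1 and 0 with 5. With 0.1, Slc14a1 passed between DTL1 and IMCD (2.82), and after quantile normalization MTAL passed against DTL1 (1.85). Slc14a2 minus Slc14a1 was 12.93 in DTL1 and 14 in IMCD with 0.1, 10.24 and 8.69 with 5, and 13.15 in DTL1 after quantile normalization. With the replicate block, Slc14a2 was 1.78 higher in DTL1 than in IMCD and was called in 7 neighbouring pairs, and Slc14a1 in 2. The block changed no call among the 47 results refitted under the alternatives. Those results held the listed genes only as counts over the list, and not Slc14a1 in MTAL against OMCD or GL. Residuals of mice with the same number in different segments had a median correlation of 0.00018 over 290 pairs. The median was 0.00037 over 1016 pairs with different numbers. Of 52 mice, 26 correlated best with a mouse of their own number, a larger share than same-numbered pairs have among all pairs compared. What mice of one number share across segments was not tested. DTL3 against DTL2 was not called with pseudocounts of 0.1 or 5, with pieces averaged as TPM or with only both groups fitted; nor was DTL2 against OMCD with a pseudocount of 5, after quantile normalization or with only both groups fitted. With a pseudocount of 5 PTS3 against DTL2 was not called either, and with 0.1 CCD against OMCD and ATL against MTAL were called as well; CCD against OMCD was also called with pieces averaged as TPM (1.03, adjusted p = 0.0285 by limma). DTL3 against ATL (adjusted p = 0.0947 by limma) and Slc14a1 in ATL against MTAL (adjusted p = 0.0742 by limma) were not called with only both groups fitted. A filter at 5 TPM removed Slc14a1, so no value was given for it. Most groups held 3 mice, and TPM without depth set no floor for the many zeros.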
